A study of Homo sapiens with 24 samples.

Results

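The genes described here are 8 of the ubiquitin and VCP machinery, out of 18915 genes counted in HepG2 cells, a human hepatoma line. UBB and RPS27A are 2 of the genes that encode ubiquitin. VCP encodes an ATPase that pulls ubiquitinated proteins out of membranes and complexes, NPLOC4 and UFD1L encode the subunits of its main ubiquitin-binding adaptor, and FAF2 encodes an adaptor anchored in the membrane of the endoplasmic reticulum. ZFAND2A and ZFAND5 encode proteins with AN1-type zinc fingers that associate with the proteasome. The 8 genes were chosen by name for these roles, with earlier results of these data known. All 8 were among the 12685 genes that passed the filter on low counts and were tested.

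Proteins marked with chains of ubiquitin are degraded by the proteasome. Many of them must first be unfolded or extracted by VCP, which recognises them through cofactors such as the UFD1L-NPLOC4 heterodimer. Ubiquitin itself is made from several genes: UBB encodes repeats of ubiquitin in a single precursor and belongs to the stress-inducible ubiquitin genes, whereas RPS27A encodes ubiquitin fused to a protein of the small ribosomal subunit. ZFAND2A is known as an arsenite-inducible gene and ZFAND5 as a stimulator of proteasome activity.

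The cells were treated for 10 h in 6 groups of 4 libraries each. The groups were the vehicle DMSO, 50 nM ISRIB, 20 µM nelfinavir (Nelf), 50 nM bortezomib (Btz), 50 nM bortezomib with 20 µM nelfinavir (Btz+Nelf), and 50 nM bortezomib with 50 nM ISRIB (Btz+ISRIB). Bortezomib inhibits the proteasome, nelfinavir is an HIV protease inhibitor that raises the phosphorylation of the translation factor eIF2α in the cell, and ISRIB makes cells insensitive to that phosphorylation. All groups were of this cell line, which is derived from a single tumor, and each drug was given at a single dose and time. Polyadenylated RNA was counted by sequencing at the transcripts' 3′ ends, so that a count does not grow with transcript length, and levels are given as CPM, a gene's count relative to the size of its library, with the libraries scaled to each other by the trimmed mean of M values (TMM).

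Library totals ranged from 5154533 to 6943164 counts, and the 8 genes had between 273 counts (ZFAND5) and 54866 counts (RPS27A) in a library. All 9 hepatocyte markers examined were detected, and their summed level on library totals was 14280 to 17510 CPM in the 12 libraries without bortezomib and 5550 to 9297 CPM in the 12 with it. Of 7 markers of blood, endothelial and connective tissue cells, 3 were among the genes counted and the rest had no entry there. COL1A1 and COL3A1 had 11 and 7 counts over all libraries, whereas LYZ was detected. The 3 summed to 280.0 to 537 CPM without and 57.3 to 181 CPM with bortezomib. Mitochondrially encoded genes took 18% to 23.2% of the counts without bortezomib and 24.9% to 40.2% with it, and the TMM factors were 1.161 to 1.24 without and 0.786 to 0.869 with bortezomib. The part of these shifts in the results below was not tested, other than by fitting with other scalings and without the mitochondrial genes. Fewer cells and less RNA per cell cannot be told apart in such bulk samples.

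In bortezomib-treated cells, all 8 genes were higher than in DMSO, by 1.37-fold for RPS27A to 11.4-fold for ZFAND2A (8 of 8 called higher, against 27.6% of 12685 genes called higher and 25.8% called lower). Calls were made with the quasi-likelihood F test of edgeR, at a Benjamini-Hochberg adjusted p below 0.05 over the genes tested. Without TMM factors, on library totals alone, the median log2 fold change of all genes moved from 0.00 to -0.50, and RPS27A turned to -0.049 (adjusted p = 0.721), while the other 7 remained called higher.

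**Figure D1:**
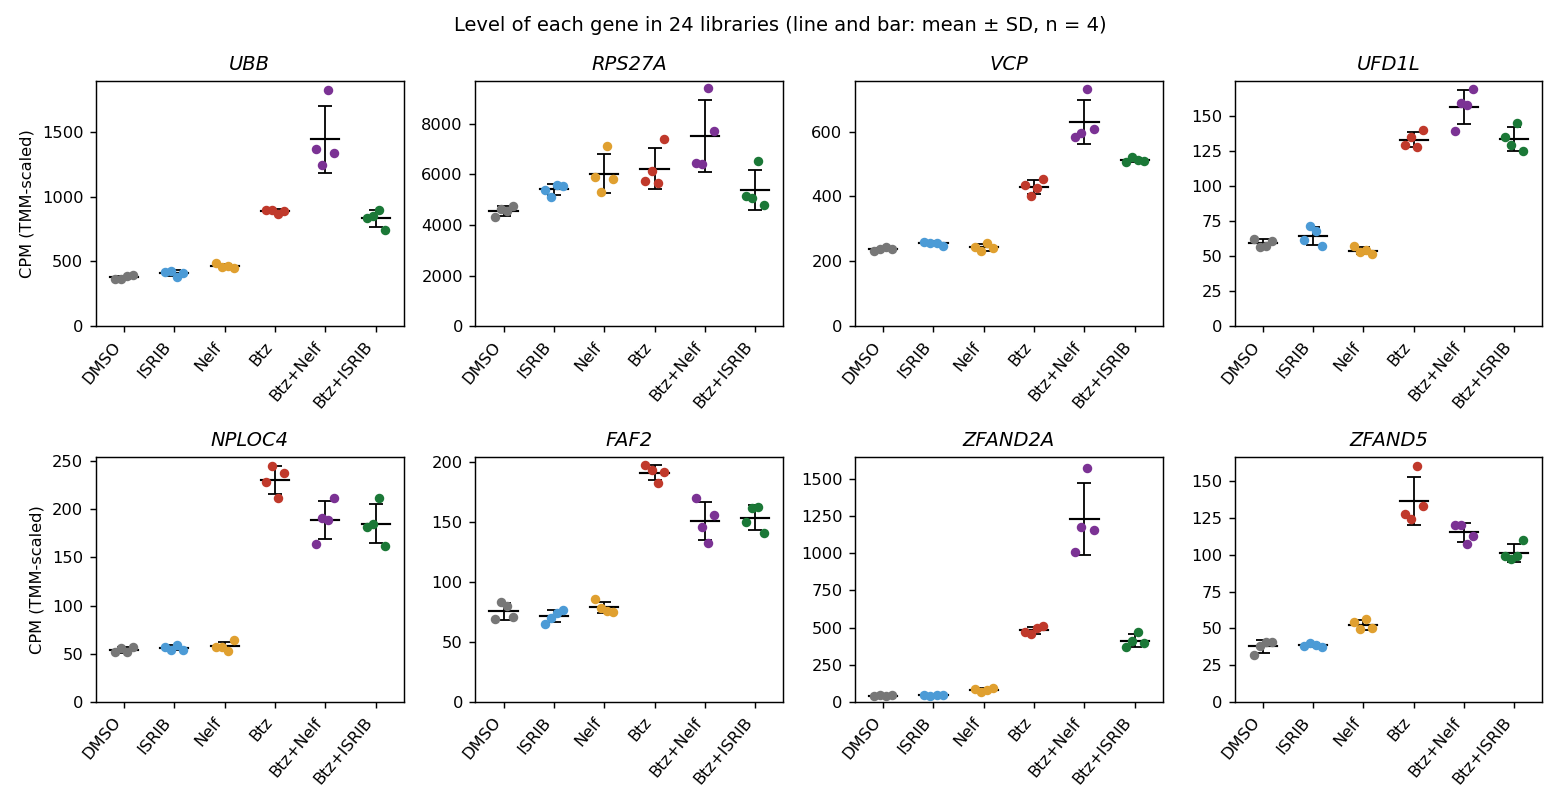
Level of each of the 8 genes (CPM, linear axis from 0) in each of the 24 libraries, by treatment group; points are libraries, and the black line and bar give the mean and SD of 4 libraries. UBB, ZFAND2A and VCP have their highest group mean in Btz+Nelf (1442, 1230 and 629 CPM), whereas FAF2, NPLOC4 and ZFAND5 have it in Btz (191, 231 and 136 CPM).

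Among the ubiquitin genes, UBB (chr17:16284112-16286059, plus strand, GRCh37) was at 365, 366, 385 and 394 CPM in DMSO and at 867, 886, 899 and 899 CPM in Btz. The libraries within each of these groups lay close together, and the log2 fold change was 1.24 ± 0.09 (SE; adjusted p = 9.613e-14). In Btz+Nelf UBB reached 1246, 1335, 1369 and 1820 CPM, above every Btz library. RPS27A (chr2:55459039-55462989, plus strand) was the most abundant of the 8 genes, at 4302, 4563, 4631 and 4755 CPM in DMSO and 5651, 5743, 6138 and 7390 CPM in Btz. Its log2 fold change was 0.45 ± 0.11 (adjusted p = 0.000847). RPS27A spread more within the bortezomib groups, where 1 library stood highest in each: 7390 CPM in Btz 4, 9436 CPM in Btz+Nelf 3 and 6535 CPM in Btz+ISRIB 3.

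VCP (chr9:35053925-35072665, minus strand) was at 233, 237, 238 and 244 CPM in DMSO and at 401, 426, 435 and 455 CPM in Btz, a log2 fold change of 0.85 ± 0.07 (adjusted p = 1.137e-11). The Btz+ISRIB libraries, at 506, 508, 511 and 521 CPM, all lay above those of Btz and below those of Btz+Nelf, at 582, 595, 609 and 731 CPM. The order of the VCP group means was thus Btz+Nelf, Btz+ISRIB and Btz with no overlap between neighbours. ISRIB, Nelf and DMSO followed, with overlap between neighbours, though the ISRIB libraries all lay above those of DMSO. Of all genes tested, 18.3% did not overlap between Btz+Nelf and Btz+ISRIB, 12.5% between Btz+ISRIB and Btz, and 8.01% between ISRIB and DMSO.

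The fold changes of the adaptor genes were larger than that of VCP, with that of NPLOC4 the largest. NPLOC4 (chr17:79523913-79615495, minus strand) went from 51.5, 51.6, 56.1 and 56.9 CPM in DMSO to 212, 228, 237 and 245 CPM in Btz, a log2 fold change of 2.09 ± 0.09 (adjusted p = 5.03e-19). UFD1L (annotated as UFD1, chr22:19437434-19466725, minus strand) went from 56.5, 57.4, 61.0 and 62.3 CPM to 128, 129, 135 and 139 CPM, a log2 fold change of 1.16 ± 0.09 (adjusted p = 3.806e-13). The genes of this heterodimer therefore stood at similar levels in DMSO, whereas every Btz library held fewer UFD1L than NPLOC4 counts. FAF2 (chr5:175874629-175937075, plus strand) was at 68.8, 70.6, 79.8 and 83.4 CPM in DMSO and at 183, 191, 193 and 198 CPM in Btz, a log2 fold change of 1.34 ± 0.09 (adjusted p = 2.3e-14).

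ZFAND2A (chr7:1191707-1200395, minus strand) had the steepest rise of the 8 genes and was 11th of all genes by p-value in this comparison. It was at 38.0, 42.7, 44 and 44.8 CPM in DMSO and at 456, 470, 497 and 509 CPM in Btz, a log2 fold change of 3.51 ± 0.12 (adjusted p = 2.378e-22). ZFAND5 (chr9:74966329-74980151, minus strand), which began at a similar level of 31.7, 38.1, 40.7 and 40.9 CPM, reached 124, 128, 133 and 160 CPM, a log2 fold change of 1.85 ± 0.10 (adjusted p = 4.762e-17). The AN1 gene pair thus parted in bortezomib-treated cells.

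RefSeq promoter windows (GRCh38.p14, 250 bases before to 50 after the start) were matched for 7 of the 8 genes and not for UFD1L. The 250 bases before the start are given for the 3 genes that rose furthest with Btz+Nelf over Btz (ZFAND2A, UBB and VCP) and for FAF2, which fell there, with every match to 5 searched motifs in capitals. The motifs, searched on both strands, were TTCNNGAA and GAANNTTC (paired heat shock element units), TGACNNNGC (the core of the antioxidant response element), TGATGNAA (the C/EBP-ATF composite element) and CCAAT, whose reverse complement reads ATTGG.
ZFAND2A, chr7:1160197-1160446, minus strand: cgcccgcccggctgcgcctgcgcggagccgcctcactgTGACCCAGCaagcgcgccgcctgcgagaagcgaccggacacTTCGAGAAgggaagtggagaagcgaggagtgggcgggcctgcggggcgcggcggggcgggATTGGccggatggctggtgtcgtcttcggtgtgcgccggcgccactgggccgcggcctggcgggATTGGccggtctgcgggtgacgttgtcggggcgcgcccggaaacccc
UBB, chr17:16381040-16381289, plus strand: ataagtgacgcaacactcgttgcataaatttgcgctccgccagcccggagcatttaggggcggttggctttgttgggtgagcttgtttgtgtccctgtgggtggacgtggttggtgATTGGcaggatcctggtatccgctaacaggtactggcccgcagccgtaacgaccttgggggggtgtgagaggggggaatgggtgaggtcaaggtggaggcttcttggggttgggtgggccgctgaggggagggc
VCP, chr9:35072626-35072875, minus strand: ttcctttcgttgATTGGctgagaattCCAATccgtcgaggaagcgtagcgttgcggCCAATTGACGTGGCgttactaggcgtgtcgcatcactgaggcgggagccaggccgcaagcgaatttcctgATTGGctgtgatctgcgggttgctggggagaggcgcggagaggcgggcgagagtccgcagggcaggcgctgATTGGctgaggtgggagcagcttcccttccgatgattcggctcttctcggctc
FAF2, chr5:176448135-176448384, plus strand: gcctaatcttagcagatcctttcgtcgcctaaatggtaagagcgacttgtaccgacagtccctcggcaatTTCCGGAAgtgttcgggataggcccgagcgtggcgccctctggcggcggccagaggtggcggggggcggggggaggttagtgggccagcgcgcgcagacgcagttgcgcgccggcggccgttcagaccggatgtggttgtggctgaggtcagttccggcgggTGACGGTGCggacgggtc
ZFAND2A held TTCNNGAA at position -171 and TGACNNNGC at position -212, counted to the leftmost base of the match from -1 just before the start. FAF2 held the same motifs at positions -180 and -18. VCP held TGACNNNGC at position -189, directly after a CCAAT box, and 5 CCAAT boxes in all. UBB held a CCAAT box at position -134 and TGACNNNGC at position 22, past the bases shown.
Over all 35116 RefSeq windows of this length, 7.74% held TTCNNGAA, 6.77% GAANNTTC, 13.4% TGACNNNGC, 3.62% TGATGNAA and 34.6% CCAAT, and 0.359% held CCAAT at least 5 times. No window of the 7 genes held TGATGNAA or GAANNTTC, and the windows of RPS27A and NPLOC4 held no searched motif other than CCAAT. A match is a description of the letters and not a measured binding site.

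Nelfinavir alone raised 4 of the 8 genes over DMSO (against 10.4% of all genes called higher and 8.84% called lower), with none of the 8 called lower. ZFAND2A rose from 38.0 to 44.8 CPM in DMSO to 69.4, 78.1, 86.7 and 92.4 CPM, a log2 fold change of 0.95 ± 0.11 (adjusted p = 8.046e-08). ZFAND5 rose to 49.3, 50.1, 54.6 and 56.2 CPM, a log2 fold change of 0.47 ± 0.10 (adjusted p = 0.000462). The groups did not overlap for either AN1 gene, nor for 29.6% of all genes tested.
UBB rose to 450.0, 457, 468 and 490.4 CPM, a log2 fold change of 0.31 ± 0.09 (adjusted p = 0.0103). RPS27A stood at 5319, 5801, 5908 and 7120 CPM, a log2 fold change of 0.40 ± 0.11 (adjusted p = 0.00748). The call on UBB was lost without DMSO replicate 2 (log2 fold change 0.28, adjusted p = 0.0523), and that on RPS27A without Nelf replicate 3 (0.32, adjusted p = 0.0556).
The values for VCP (log2 fold change 0.03 ± 0.07), FAF2 (0.06 ± 0.09), NPLOC4 (0.10 ± 0.09) and UFD1L (-0.14 ± 0.09) did not pass the test.

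ISRIB alone changed none of the 8 genes past the threshold, and edgeR called 0% of the 12685 genes. At an unadjusted p under 0.05 there were 703 genes, and DESeq2 called 3 genes lower and 0 higher, none of them among the 8. The log2 fold changes of the 8 genes ran from -0.08 ± 0.09 for FAF2 to 0.25 ± 0.11 for RPS27A (adjusted p = 0.841, unadjusted p = 0.0312). RPS27A stood at 5123, 5394, 5554 and 5594 CPM with ISRIB, all above the DMSO libraries, but this did not hold after adjustment. VCP, at 248, 256, 258 and 261 CPM with ISRIB, also lay above all DMSO libraries and was not called (log2 fold change 0.10 ± 0.07). ISRIB and DMSO did not overlap for 8.01% of all genes tested.

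Adding nelfinavir to bortezomib split the 8 genes. ZFAND2A, UBB, VCP and UFD1L were higher in Btz+Nelf than in Btz, FAF2, NPLOC4 and ZFAND5 were lower, and RPS27A did not pass the test (4 called higher and 3 lower, against 15.6% of all genes called higher and 13.4% lower). ZFAND2A rose to 1009, 1159, 1180 and 1573 CPM, a log2 fold change of 1.35 ± 0.11 over Btz (adjusted p = 1.03e-11). The lowest Btz+Nelf library lay far above the highest Btz library, and the ratio of the Btz+Nelf to the DMSO mean was 29.0.
UBB rose by 0.70 ± 0.09 on the log2 scale (adjusted p = 1.65e-07) and VCP by 0.55 ± 0.07 (adjusted p = 5.645e-07), both without overlap between the groups. Btz+Nelf and Btz did not overlap for 21.5% of all genes tested. Btz+Nelf replicate 3 was the highest library of its group for UBB, ZFAND2A and VCP. With each library left out in turn, their log2 fold changes ran from 0.59 to 0.82, from 1.23 to 1.49 and from 0.50 to 0.64, all still called. RPS27A stood at 6396, 6456, 7731 and 9436 CPM, and its log2 fold change over Btz was 0.27 ± 0.11 (adjusted p = 0.0643). It passed the test without Btz replicate 4, without Btz+Nelf replicate 1 or 2 and without any Btz+ISRIB library (0.31 to 0.40, adjusted p 0.0125 to 0.0447), and with no filter (0.32, adjusted p = 0.00422).

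The changes of the adaptor genes were smaller. FAF2 fell to 132, 146, 156 and 170.1 CPM, below every Btz library, a log2 fold change of -0.34 ± 0.09 (adjusted p = 0.00387). NPLOC4 fell to 164, 189, 190.5 and 212 CPM, where the highest library was level with the lowest of Btz, a log2 fold change of -0.29 ± 0.09 (adjusted p = 0.0138). UFD1L rose to 139, 158, 159 and 169 CPM, with its lowest library level with the highest of Btz, a log2 fold change of 0.23 ± 0.09 (adjusted p = 0.0371).
The calls on NPLOC4 and UFD1L depended on single libraries and on the processing. NPLOC4 was no longer called without Btz replicate 1, 2 or 4 or Btz+Nelf replicate 1, 2 or 3 (log2 fold change -0.26 to -0.18, adjusted p 0.0504 to 0.161). UFD1L was no longer called without DMSO replicate 2, Btz replicate 3 or Btz+Nelf replicate 4 (0.22 to 0.25, adjusted p 0.0525 to 0.0737). With no filter the NPLOC4 call was lost (-0.24, adjusted p = 0.0897), and the UFD1L call was lost with upper-quartile factors, on library totals alone, with no filter and with only the groups compared (0.19 to 0.28, adjusted p 0.055 to 0.141).
ZFAND5 was at 107, 113, 120.1 and 120.1 CPM, below every Btz library, and its log2 fold change was -0.24 ± 0.09 (adjusted p = 0.0464). This call was lost on leaving out any library other than DMSO replicates 1 and 2, ISRIB replicate 3 and Nelf replicate 3; without Btz replicate 3, the highest of its group, the value was -0.12 (adjusted p = 0.362). It was also lost with relative log expression (RLE) factors, with no filter and with only the groups compared (-0.26 to -0.20, adjusted p 0.0543 to 0.232).

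**Figure D2:**
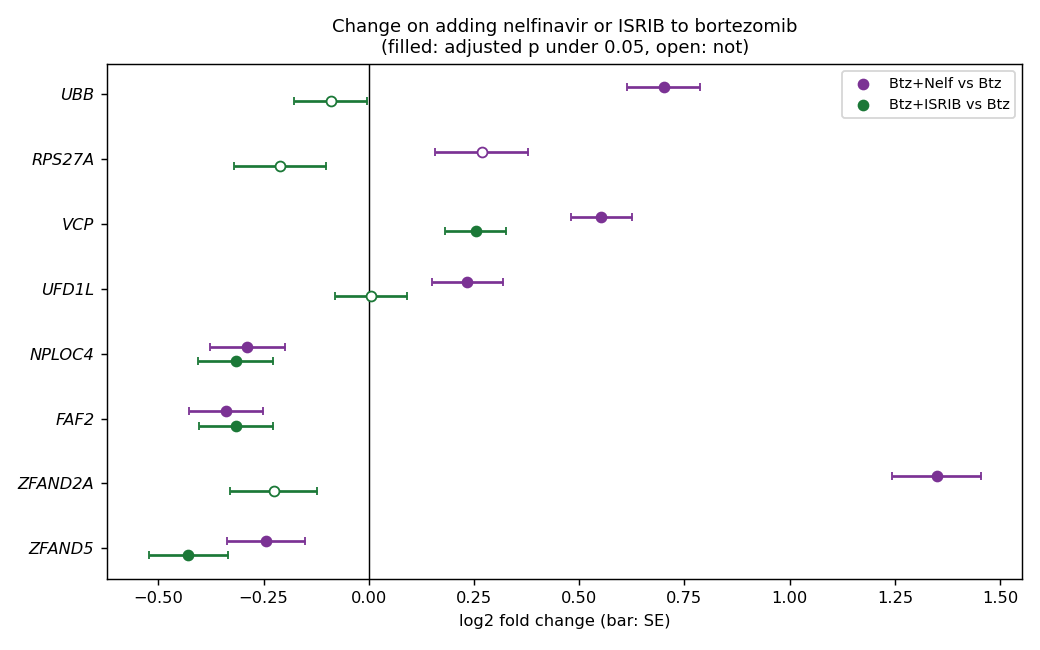
Log2 fold change (x axis, bar: SE) of the 8 genes in Btz+Nelf against Btz (purple) and in Btz+ISRIB against Btz (green), with filled points for an adjusted p under 0.05 and open points otherwise. The purple points of ZFAND2A (1.35), UBB (0.70) and VCP (0.55) lie furthest to the right, and those of FAF2 and NPLOC4 lie beside the green ones, at -0.34 and -0.29 against -0.32 and -0.32.

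Adding ISRIB to bortezomib lowered ZFAND5, FAF2 and NPLOC4 and raised VCP (1 called higher and 3 lower, against 6.91% of all genes called higher and 5.34% lower). ZFAND5 was at 96.8, 99.0, 99.3 and 110.1 CPM, below all Btz libraries, a log2 fold change of -0.43 ± 0.09 (adjusted p = 0.00189). FAF2 was at 141, 150, 162 and 162 CPM, also below all Btz libraries, a log2 fold change of -0.32 ± 0.09 (adjusted p = 0.0152). Btz+ISRIB and Btz did not overlap for 12.5% of all genes tested. NPLOC4 was at 162, 182, 185 and 212 CPM, its highest library level with the lowest of Btz, a log2 fold change of -0.32 ± 0.09 (adjusted p = 0.0157).
VCP was higher by 0.25 ± 0.07 (adjusted p = 0.0183). ZFAND2A, at 371, 396, 413 and 470.4 CPM, overlapped with Btz, and its log2 fold change was -0.23 ± 0.10 (adjusted p = 0.16). UBB (-0.09 ± 0.09), UFD1L (0.00 ± 0.09) and RPS27A (-0.21 ± 0.11) did not pass the test either.
The call on VCP was lost without Btz replicate 1, 2 or 3 or Btz+ISRIB replicate 2 (log2 fold change 0.22 to 0.26, adjusted p 0.0517 to 0.0907) and also on library totals alone (0.19, adjusted p = 0.093), with no filter (0.25, adjusted p = 0.0878) and with only the groups compared (0.25, adjusted p = 0.0649). The call on NPLOC4 was lost without Btz replicate 2 (-0.28, adjusted p = 0.0662) or Btz+ISRIB replicate 4 (-0.26, adjusted p = 0.0843), and that on FAF2 without Btz+ISRIB replicate 4 (-0.28, adjusted p = 0.0543).

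The direct comparison of the co-treatments found ZFAND2A (log2 fold change 1.58 ± 0.11, adjusted p = 5.249e-13), UBB (0.79 ± 0.09, adjusted p = 2.166e-08), RPS27A (0.48 ± 0.11, adjusted p = 0.00147), VCP (0.30 ± 0.07, adjusted p = 0.00252) and UFD1L (0.23 ± 0.09, adjusted p = 0.047) higher in Btz+Nelf than in Btz+ISRIB. These were 5 of 8 called higher, against 13.2% of all genes called higher and 11.3% lower, and none of the 8 was called lower. The groups overlapped for RPS27A and UFD1L but not for UBB, VCP and ZFAND2A. They did not overlap for 18.3% of all genes tested. FAF2 (-0.02 ± 0.09), NPLOC4 (0.03 ± 0.09) and ZFAND5 (0.18 ± 0.09) did not pass the test. The UFD1L call was lost on leaving out any of 13 libraries (every DMSO and Nelf library, ISRIB replicate 1, Btz+Nelf replicates 3 and 4, and Btz+ISRIB replicates 2 and 4), with adjusted p up to 0.086. It was also lost with upper-quartile factors, with no filter and with only the groups compared in the fit (adjusted p 0.0619 to 0.188), and the VCP call was lost with only the groups compared (0.28, adjusted p = 0.0661).

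Bortezomib raised the genes on the background of either drug as well. In Btz+Nelf against Nelf, 8 of 8 were called higher (28.7% of all genes higher, 28.4% lower), from 0.31 ± 0.11 for RPS27A (adjusted p = 0.0152) and 0.94 ± 0.09 for FAF2 to 3.91 ± 0.12 for ZFAND2A. In Btz+ISRIB against ISRIB, 7 of 8 were called higher (29.1% of all genes higher, 25.6% lower), from 1.00 ± 0.07 for VCP to 3.19 ± 0.12 for ZFAND2A, and RPS27A was at -0.01 ± 0.11. The RPS27A call against Nelf was lost without Nelf replicate 2 (0.26, adjusted p = 0.0668) or Btz+Nelf replicate 3 (0.17, adjusted p = 0.187) and with upper-quartile factors (0.21, adjusted p = 0.0983), and its sign turned on library totals alone (-0.19, adjusted p = 0.131). On library totals alone RPS27A was also called lower in Btz+ISRIB than in ISRIB (-0.54, adjusted p = 8.243e-05).

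Whether the change with nelfinavir differed with and without bortezomib was tested by an interaction term, which compares Btz+Nelf over Btz with Nelf over DMSO. The term passed the threshold for 6 of the 8 genes, 3 upward and 3 downward (against 9.74% of all genes upward and 10% downward). It was positive for VCP (log2 difference 0.52 ± 0.10, adjusted p = 0.000376), UBB (0.39 ± 0.12, adjusted p = 0.0202) and UFD1L (0.37 ± 0.12, adjusted p = 0.0289). It was negative for ZFAND5 (-0.72 ± 0.13, adjusted p = 0.000191), FAF2 (-0.40 ± 0.13, adjusted p = 0.022) and NPLOC4 (-0.39 ± 0.13, adjusted p = 0.0299). VCP, for example, stood at 231, 240.2, 244 and 257 CPM with nelfinavir alone, overlapping DMSO, but was higher in Btz+Nelf than in Btz. ZFAND5 rose with nelfinavir alone and was lower with nelfinavir in bortezomib-treated cells.
For ZFAND2A, which rose with nelfinavir in either setting, the term was 0.40 ± 0.15 (adjusted p = 0.0607), and for RPS27A it was -0.14 ± 0.16. The ZFAND2A term passed the threshold without DMSO replicate 1, Nelf replicate 4, Btz replicate 4, Btz+Nelf replicate 1, 2 or 4 or any Btz+ISRIB library (0.45 to 0.55, adjusted p 0.0103 to 0.0495), and with no filter (0.46, adjusted p = 0.0111). The terms of VCP, UBB and ZFAND5 held with any single library left out. That of UFD1L was lost without DMSO replicate 1 or 4 or Nelf replicate 2 or 4 (0.35 to 0.36, adjusted p 0.052 to 0.0629) or on library totals alone (0.36, adjusted p = 0.0581). That of FAF2 was lost with no filter (-0.34, adjusted p = 0.126) and without DMSO replicate 1 or 4, Nelf replicate 1, Btz replicate 1, 2 or 4 or Btz+Nelf replicate 2 or 3 (-0.37 to -0.31, adjusted p 0.0531 to 0.0864). The NPLOC4 term was lost without any of 14 libraries (DMSO replicates 1 and 3, Nelf replicate 4, Btz+Nelf replicates 1, 2 and 3, and every Btz and Btz+ISRIB library), with values from -0.38 to -0.27 and adjusted p up to 0.156, as well as with no filter (-0.33, adjusted p = 0.149) and with only the groups compared (-0.36, adjusted p = 0.0533).

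**Figure D3:**
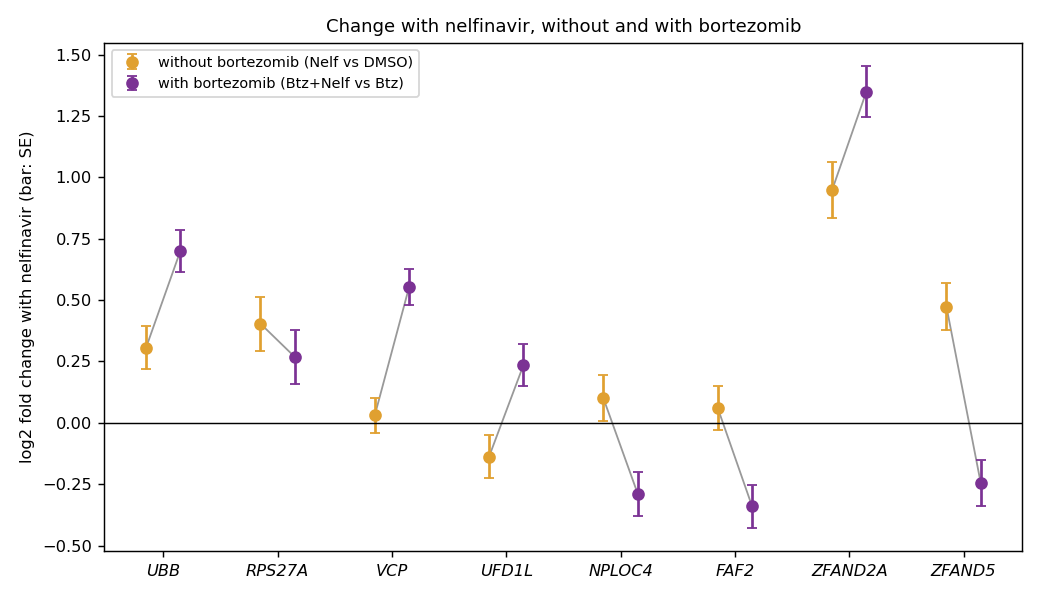
Log2 fold change with nelfinavir (y axis, bar: SE) without bortezomib (Nelf against DMSO, orange) and with it (Btz+Nelf against Btz, purple), joined by a line for each gene. The line climbs for UBB, VCP, UFD1L and ZFAND2A and drops for NPLOC4, FAF2 and ZFAND5, most steeply for ZFAND5, from 0.47 to -0.24.

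The same term for ISRIB passed the threshold for 1 of the 8 genes (against 2.93% of all genes upward and 1.89% downward). ZFAND5 was at 37.5, 38.2, 39.0 and 40.0 CPM with ISRIB alone, within the range of DMSO, and its log2 difference was -0.46 ± 0.14 (adjusted p = 0.0429). RPS27A (-0.46 ± 0.16, adjusted p = 0.0843) and NPLOC4 (-0.37 ± 0.13, adjusted p = 0.0954) did not pass, although RPS27A did without Btz+Nelf replicate 3 (-0.46, adjusted p = 0.044) or Btz+ISRIB replicate 3 (-0.57, adjusted p = 0.025), and NPLOC4 without Btz+ISRIB replicate 3 (-0.44, adjusted p = 0.0424). RPS27A also passed with no filter (-0.46, adjusted p = 0.0145) and with only the groups compared (-0.47, adjusted p = 0.0232). The ZFAND5 term was lost on leaving out any of 11 libraries (DMSO replicates 1 and 2, every ISRIB library, Btz replicates 3 and 4, and Btz+ISRIB replicates 1, 2 and 3), with values from -0.47 to -0.38 and adjusted p up to 0.121, and with no filter (-0.46, adjusted p = 0.102).

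Ratios of counts within a library do not depend on the scaling between libraries; the pairs were picked after the levels had been seen and carry no test. UFD1L counts were 1.01 to 1.21 times those of NPLOC4 in DMSO, 0.551 to 0.604 times in Btz, 0.684 to 0.771 times in Btz+ISRIB and 0.797 to 0.851 times in Btz+Nelf, with no overlap among these 4 groups. With nelfinavir alone they were 0.8089 to 1.012 times, overlapping both DMSO and Btz+Nelf. With ISRIB alone they were 1.055 to 1.312 times, overlapping DMSO. The ratio of UBB to RPS27A had a geometric mean of 0.0827 in DMSO, 0.143 in Btz, 0.156 in Btz+ISRIB and 0.193 in Btz+Nelf. This ratio overlapped between Btz (0.1199 to 0.1565) and Btz+ISRIB (0.1375 to 0.1676). It was 0.0657 to 0.086 with nelfinavir alone, overlapping DMSO. For ZFAND2A over ZFAND5, which began near parity (1.05 to 1.2 in DMSO), the ratio was 1.39 to 1.85 in Nelf, 3.11 to 3.82 in Btz and 8.41 to 14.7 in Btz+Nelf.

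RPS27A was set beside 31 other genes of the small ribosomal subunit, since it encodes a ribosomal protein as well as ubiquitin. In Btz against DMSO, 18 of the 31 were called higher and 1 lower (RPS26, -0.84), against 27.6% and 25.8% of all genes, with a median log2 fold change of 0.27 against 0.00 over all genes, whereas on library totals alone 3 were called higher and 16 lower, with a median of -0.22. RPS27A (0.45) was exceeded by 4 of the 31, and UBB (1.24) lay above all 31. With nelfinavir alone, 17 of the 31 were called higher and 1 lower (RPS26, -0.52), against 10.4% and 8.84% of all genes, with a median of 0.22, and RPS27A (0.40) was level with the highest of them, RPS2 (0.40).
In Btz+ISRIB against Btz, the median of the 31 was -0.10, and 26 of them lay above RPS27A (-0.21). The ISRIB interaction term of RPS27A (-0.46 ± 0.16) was not called and was level with the lowest of the 31, RPS15A (-0.44). Of the 31, 3 were called lower, against 1.89% of all genes.

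**Figure D4:**
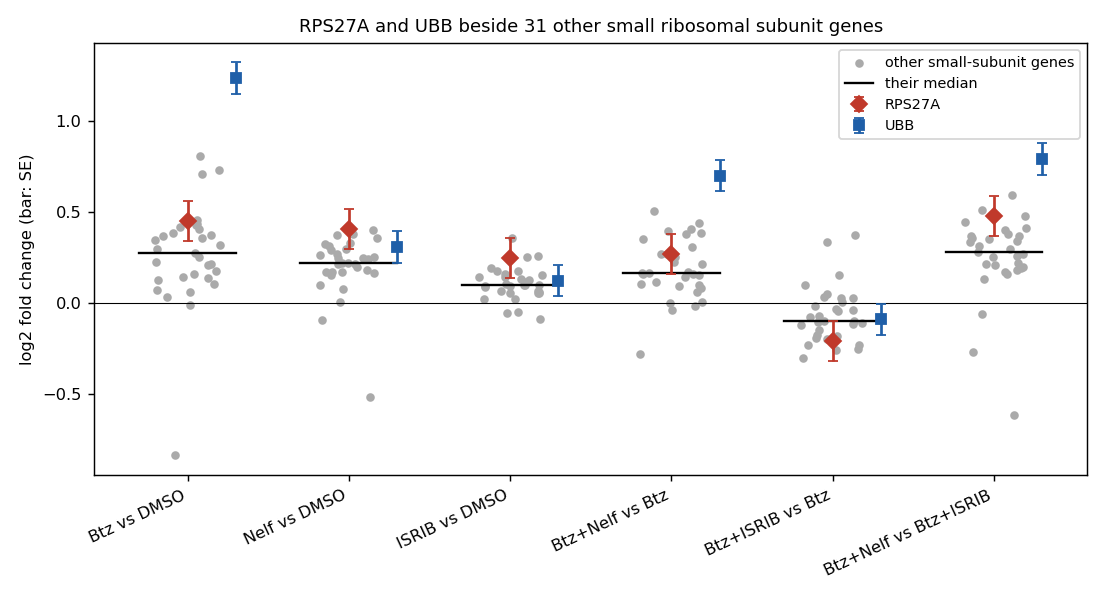
Log2 fold change (y axis) of 31 genes of the small ribosomal subunit (grey points, spread sideways for display; black line: median) with RPS27A (red, bar: SE) and UBB (blue, bar: SE) in 6 comparisons. RPS27A stays within the range of the grey points other than in Nelf against DMSO, where it lies level with the highest (0.40), and UBB lies above the points in Btz against DMSO (1.24), Btz+Nelf against Btz (0.70) and Btz+Nelf against Btz+ISRIB (0.79).

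Of a list of 26 other VCP cofactors, 22 were tested. In Btz against DMSO, 14 were called higher and 2 lower (27.6% and 25.8% of all genes), with a median log2 fold change of 0.60 (8 higher and 4 lower, median 0.10, on library totals alone). The highest log2 fold change, given in parentheses here and for the genes that follow, was that of NSFL1C (1.87), which encodes the VCP adaptor also known for membrane fusion, and the lower ones were SVIP (-1.79), which encodes a small VCP-interacting inhibitor of ER-associated degradation, and ASPSCR1 (-0.95). On adding nelfinavir to bortezomib, YOD1 (1.06), VIMP (0.96), DERL2 (0.67) and UBXN6 (0.54) were called higher and ASPSCR1 (-0.42) lower, with a median over the 22 of 0.06 against -0.02 over all genes, of which 15.6% were called higher and 13.4% lower. On adding ISRIB, where 6.91% of all genes were called higher and 5.34% lower and the median was -0.16 against 0.01, DERL2 (0.85), VIMP (0.77), YOD1 (0.76) and SVIP (0.48) were higher, and FAF1 (-0.40), UBXN7 (-0.35) and NSFL1C (-0.34) were lower. YOD1 encodes a deubiquitinase that acts with VCP, and VIMP and DERL2 encode membrane proteins that tie VCP to the ER. Nelfinavir alone raised 5 of the 22, RHBDD1 (0.95), ANKZF1 (0.80), UBXN6 (0.64), VIMP (0.64) and UBXN1 (0.49), and lowered SVIP (-0.65), with a median of 0.18, where 10.4% of all genes were called higher and 8.84% lower.

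Among the 5 other AN1 genes tested, ZFAND3 (1.46) and ZFAND1 (0.98) were higher and ZFAND2B (-0.99) was lower in Btz than in DMSO, so that ZFAND2A and its close relative ZFAND2B moved in opposite directions; the median of the 5 was 0.29, and on library totals alone 1 was called higher and 2 lower with a median of -0.21. These 2 higher and 1 lower of 5 stand against 27.6% and 25.8% of all genes. With nelfinavir alone, where 10.4% of all genes were called higher, ZFAND1 (1.31), ZFAND3 (0.75) and ZFAND2B (0.66) were higher. ZFAND2B was also higher (0.81) and ZFAND4 lower (-1.68) in Btz+Nelf than in Btz, against 15.6% and 13.4% of all genes, and ISRIB called none of the 5 on top of bortezomib. Of 6 genes for shuttle factors, which carry ubiquitinated proteins to the proteasome, UBQLN1 (1.45), UBQLN4 (1.07) and RAD23B (0.49) were higher and DDI2 (-1.29) was lower in Btz than in DMSO (27.6% and 25.8% of all genes), with a median of 0.39, against 1 higher and 1 lower and a median of -0.11 on library totals alone. In Btz+Nelf against Btz, DDI2 (0.48) and UBQLN1 (0.23) were higher and UBQLN2 (-0.66) lower (15.6% and 13.4% of all genes).

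Over the 24 libraries, the log2 levels of UBB and ZFAND2A were the most alike of all pairs among the 8 genes (Pearson r = 0.986), and ZFAND2A was the closest of all tested genes to UBB, followed by TPD52L2 (0.986) and CSNK1E (0.983). ZFAND2A was most like DEDD2 (0.989), CSNK1E (0.988) and MAFK (0.988), and VCP most like DNAJB1 (0.984), IL11 (0.982) and SELK (0.981). DNAJB1 encodes a heat shock co-chaperone and MAFK a small MAF transcription factor. FAF2 and NPLOC4 formed another close pair (0.977). RPS27A was most like RPL26 (0.938), EEF1D (0.937) and RPL8 (0.935), genes of the translation machinery, and its r with the other 7 genes was 0.433 to 0.698. Since 12 of the libraries had bortezomib and 12 did not, each r carries that difference between the libraries, together with any shared effect of depth and scaling.

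The last 500 bases of the transcripts were aligned to all others of the annotation to look for near copies that could share reads (at least 80 bases, the read length, at 97% identity or more). RPS27A had 3, the pseudogenes RPS27AP16 (500 bases at 99.0%), RPS27AP5 (471 bases at 97.9%) and RPS27AP11 (202 bases at 97.5%), so that its counts are uncertain to the extent that reads were shared. VCP and ZFAND5 had 1 unnamed model each, and none of these 5 had a row in the count table used here. UBB, NPLOC4, UFD1L, FAF2 and ZFAND2A had none.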

How the data were processed

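HepG2 RNA was sequenced from 3′ ends in 24 libraries. The authors trimmed reads (cutadapt 2.8), aligned them to hg19 with STAR and deposited raw counts per gene (counter, strandedness, UMIs: not given in the sources used here). Reads of overlapping antisense genes may therefore be mixed. From the deposited counts, edgeR 4.0.16 in R 4.3.3 kept 12685 genes (filterByExpr, minimum count 5, minimum total 25). It scaled them by TMM and fitted the quasi-likelihood model to all 6 groups at once. Contrasts of a pair of groups used 4 against 4 libraries, and each interaction term combined 4 groups. All used Benjamini-Hochberg adjustment at 0.05. The study names 4 biological replicates per condition, but the sample labels do not tie equal replicate numbers to shared cultures. Libraries were therefore not paired in the main fit. Alternatives were other scalings and filters, DESeq2 1.42.0, the groups compared alone, a replicate block, no mitochondrial genes, and each library left out. Near copies were searched with BLAST 2.17.0. Named genes were the 8 genes, in 4 related lists those called where 5 or fewer were called in a direction and the extremes, and the 3 genes most correlated with UBB, ZFAND2A, VCP and RPS27A. Some results on genes of the lists are not reported here. The genes and lists were chosen with earlier results of these data known.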

Additional observations from a re-analysis of the deposited data

Results flagged for a closer look

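For 7 results the effect of a drug differed between cells with and without bortezomib by the interaction term of the edgeR model. Of all genes, the nelfinavir term was called upward for 9.74% and downward for 10%. The ISRIB term was called for 2.93% and 1.89%. For nelfinavir the log2 difference (with minus without bortezomib) was 0.52 for VCP, 0.39 for UBB and 0.37 for UFD1L, and -0.72 for ZFAND5, -0.40 for FAF2 and -0.39 for NPLOC4. For ISRIB it was -0.46 for ZFAND5. Only the nelfinavir terms of VCP, UBB and ZFAND5 remained called with any single library left out. No library stood apart from the other 3 of its group by Dixon's test in any of the 48 sets of 4 libraries (8 genes in 6 groups).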

How the results depend on the processing

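Over 9 alternatives, 687 of 720 member values kept their side of the threshold and, where called, their direction. With each library left out, 1810 of 1920 did. A change of sign in a value called in neither fit was counted as kept. With library totals alone, RPS27A reversed in Btz vs DMSO (-0.049) and Btz+Nelf vs Nelf (-0.19), and all genes called higher and lower became 1490 and 6266 (Btz vs DMSO; 3498 and 3275 with TMM), 1584 and 6518 (Btz+Nelf vs Nelf; 3639 and 3600) and 1532 and 6397 (Btz+ISRIB vs ISRIB; 3694 and 3243). Fitting only the groups compared, which has fewer samples, gave 1284 and 962 genes for Btz+Nelf vs Btz (1975 and 1694 in the fit of all groups), 510 and 357 for Btz+ISRIB vs Btz (876 and 677), 985 and 755 for Btz+Nelf vs Btz+ISRIB (1669 and 1429, with 3 of the 8 genes called in place of 5), 4 and 76 for ISRIB vs DMSO (0 and 0), and 1948 lower for Nelf vs DMSO (1121). Without a filter ISRIB vs DMSO had 5 higher and 34 lower; DESeq2 had 3 lower there and 411 lower for the ISRIB interaction (240 with edgeR). The ISRIB interaction called 2 of the 8 genes rather than 1 when fitted on its own groups and with a replicate block. All genes called higher and lower were then 420 and 302 on its own groups and 414 and 278 with the block. With a library left out it called 0 to 2 of the 8 genes, and Btz+ISRIB vs Btz called 2 to 4. The causes were not tested. Whether equal replicate numbers pair the libraries was not settled. Over 2000 genes, 26 of 60 same-numbered pairs and 58 of 180 other pairs correlated above 0.1 (median r 0.030 and -0.004). The replicate block gave 7 calls in place of 6 for the nelfinavir interaction, with 1291 of all genes called higher and 1305 lower. It gave 4 in place of 5 for Btz+Nelf vs Btz+ISRIB, with 1715 of all genes higher and 1475 lower. It added RPS27A in Btz+Nelf vs Btz (adjusted p = 0.0438) and in the ISRIB interaction (0.0364) and ZFAND2A in the nelfinavir interaction (0.0385), and dropped ZFAND5 in Btz+Nelf vs Btz (0.0504) and UFD1L in Btz+Nelf vs Btz+ISRIB (0.052). Depth limited the 8 genes little: the lowest count was 273.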
